A study of Homo sapiens with 2 samples.

Results

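The glucocorticoid receptor gene NR3C1 and 5 of its well known target genes (TSC22D3, FKBP5, KLF9, ZFP36 and SGK1) were followed in A549, an established line of human lung adenocarcinoma cells, with and without knockdown of MYOCD. The genes were taken by exact symbol from the deposited table. All 6 were found, each on 1 line of its own, and 0 were absent, among 12936 named genes. The wild type group and the MYOCD knockdown group were represented by 1 library each. There is therefore no replicate spread to set a difference against, and none was tested. Both samples carry the same growth and treatment labels, DMEM with 10% FBS and doxycycline for 72 h, while the design text of the series calls the wild type cells untreated. If only the knockdown cells received doxycycline, drug and knockdown cannot be told apart. The knockdown sample is titled MYOCD-/- and its genotype label says knockdown; the sources used here do not say how it was made or whether it is 1 clone. No glucocorticoid is named in the labels.

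Glucocorticoids such as cortisol enter the cell and bind the receptor in the cytoplasm, where HSP90 and its co-chaperones hold it ready for hormone. The bound receptor moves to the nucleus, where it switches on genes that carry glucocorticoid response elements, often far from their promoters, and restrains inflammatory genes driven by NF-kB and AP-1. A549 cells are a standard model of this response. MYOCD encodes myocardin, a coactivator of serum response factor, which binds DNA at the CArG box.

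The values are in RPKM, which divides reads by the length of the transcript and the size of the library, so levels can be compared between genes. No read counts were used, so depth is unknown. Pairs of values below give the wild type library first. The targeted gene MYOCD was listed at 0.881 and 0.400 RPKM, a low level in both libraries. A log2 change is log2((knockdown RPKM + 1) / (wild type RPKM + 1)). It was compared over the 12158 named genes that averaged 1 RPKM or more. The labelled epithelial line was checked by its markers: EPCAM, KRT7, KRT8, KRT18, KRT19 and CDH1 were all found, with summed levels of 4749 and 4692 RPKM. KRT7, KRT8 and KRT18 made up nearly all of these sums. CDH1 had 23.8 and 22.5 RPKM, KRT19 had 7.70 and 7.69, and EPCAM only 2.24 and 2.15. Of 20 markers of leukocytes, endothelium, fibroblasts and smooth muscle, 4 were found, and no such list summed to more than 4.10 RPKM in either library. LYZ, CD14, COL1A1 and MYH11 were the 4. CD14, at 3.13 and 3.30 RPKM, and COL1A1, at 2.76 and 2.41, were above EPCAM in both libraries.

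The receptor and its target genes had closely similar levels in both libraries, with 1 larger difference, a lower KLF9. Of the 6 genes, 0 differed by 2-fold on the log2 change scale, against 1.37% of all named genes (0.724% lower and 0.65% higher). At 1.5-fold the count was also 0, against 4.85% (3.2% lower and 1.65% higher). That count was 1, KLF9, with a pseudocount of 0.1 or with the libraries rescaled to equal summed RPKM over all lines, named or not. It stayed 0 with equal summed RPKM over named lines. The log2 changes of ZFP36, TSC22D3 and KLF9 were below 0 and those of NR3C1, FKBP5 and SGK1 were above 0, against 47.9% and 52.1% of all named genes. Their median was -0.03, and the median over all named genes was 0.01. Equal summed RPKM over named lines left the latter at 0.005. Rescaling both libraries to equal summed RPKM over all lines moved it to -0.17. All 6 genes were then below 0, and NR3C1, FKBP5 and SGK1 were still above that median. The order of the levels was the same in both libraries: NR3C1, ZFP36, FKBP5, SGK1, TSC22D3 and KLF9, from high to low. Without replicates it cannot be said which neighbours in this order differ beyond their spread. FKBP5 and SGK1 stood closest, with a ratio of FKBP5 to SGK1 of 1.14 in the wild type and of 1.12 in the knockdown.

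**Figure D1:**
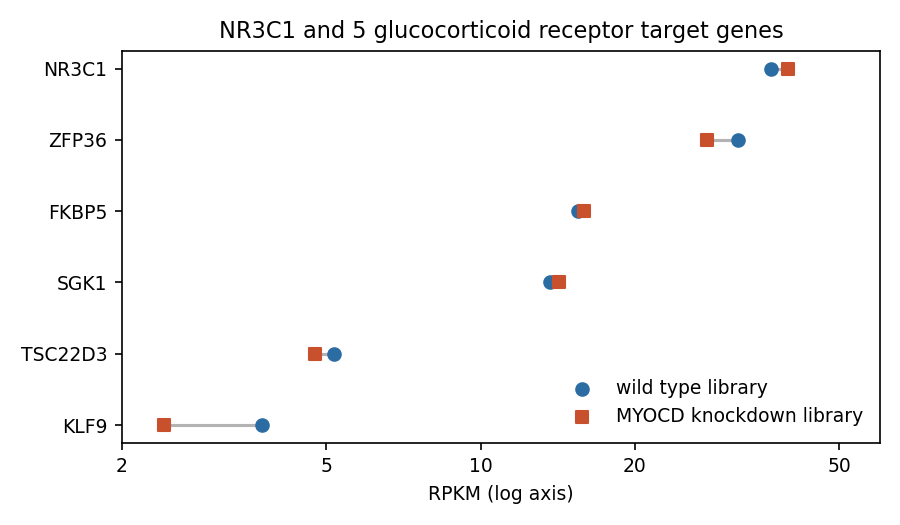
RPKM (log axis) of NR3C1 and 5 target genes, with a circle for the wild type library and a square for the MYOCD knockdown library, 1 library each. The pairs nearly coincide for FKBP5 and SGK1, and the widest gap is that of KLF9, from 3.74 to 2.42 RPKM.

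NR3C1 encodes the receptor itself, a ligand-activated transcription factor of the nuclear receptor family. Its gene spans chromosome 5 from 143277931 to 143435512 on the minus strand. Gene positions are those of GENCODE release 29 (GRCh38). It was listed at 36.9 RPKM in wild type and at 39.8 RPKM in knockdown cells, the highest level of the 6 genes in both. The second value is 108% of the first, a log2 change of 0.11, and 63.5% of all named genes differed by at least that much. NR3C1 stood above 80.4% of the compared genes in wild type and above 81.3% in knockdown cells. RefSeq lists 7 alternative starts for NR3C1, which 1 value per locus cannot separate. NR3C2, the mineralocorticoid receptor and its closest relative, was not matched to a line.

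TSC22D3 encodes GILZ, a leucine zipper protein that binds and restrains NF-kB and AP-1 and is a sensitive marker of receptor activity. It lies on the minus strand of chromosome X from 107713221 to 107777342. It was listed at 5.19 and 4.76 RPKM, a log2 change of -0.10, and 64.6% of all named genes differed by at least as much. The knockdown value was 91.8% of the wild type value. Part of the TSC22D3 span overlaps NCBP2L on the other strand. The sources used here do not say whether strand was used in counting, so reads of this pair may not be told apart. Among the relatives, TSC22D1 was listed at 76.2 and 75.0 RPKM, TSC22D4 at 20.9 and 18.2, and TSC22D2 at 6.06 and 7.50. TSC22D3 was thus the lowest of its family in both libraries.

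FKBP5 encodes FKBP51, a co-chaperone that lowers the hormone affinity of the receptor and so closes a negative feedback loop. It lies on the minus strand of chromosome 6 from 35573585 to 35728583. It was listed at 15.5 and 15.9 RPKM, a log2 change of 0.04, and 86.8% of all named genes differed by at least as much, the most for any of the 6. The microRNA gene MIR5690 lies within FKBP5 on the same strand, and was not matched to a line of its own. FKBP4, which encodes FKBP52, the co-chaperone with the opposite action on the receptor, was listed at 97.0 and 95.7 RPKM. FKBP4 thus stood at 6.26 times FKBP5 in wild type and 6.01 times in knockdown cells.

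SGK1 encodes a kinase that promotes sodium uptake and cell survival and is induced by glucocorticoids and by mineralocorticoids. It lies on the minus strand of chromosome 6 from 134169246 to 134318112. It was listed at 13.6 and 14.2 RPKM, a log2 change of 0.05, and 81.8% of all named genes differed by at least as much. The related kinase gene SGK2 had 3.95 and 4.92 RPKM. SGK3 was found only in a locus shared with another gene name and was not compared.

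ZFP36 encodes tristetraprolin, which binds AU-rich elements in the 3′ UTRs of cytokine messages and recruits the CCR4-NOT deadenylase. It lies on chromosome 19, plus strand, from 39406813 to 39409412, the shortest of the 6 gene spans at 2.60 kb. It was listed at 31.8 and 27.7 RPKM, a log2 change of -0.19, and 40.1% of all named genes differed by at least as much. The knockdown value was 87.0% of the wild type value. Its relatives did not share 1 direction: ZFP36L1 had 67.6 and 84.5 RPKM, and ZFP36L2 had 16.01 and 13.76 RPKM. ZFP36L1 stood at 2.13 times ZFP36 in wild type and 3.05 times in knockdown cells.

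KLF9 encodes a Krüppel-like zinc finger repressor that the receptor induces directly and that dampens part of the later response. It lies on the minus strand of chromosome 9 from 70384597 to 70414624. It was listed at 3.74 RPKM in wild type and at 2.42 RPKM in knockdown cells, the lowest level of the 6 genes in both. The knockdown value was 64.6% of the wild type value. The log2 change was -0.47, or -0.63 with no pseudocount, and 8.48% of all named genes differed by at least as much. Among 2893 genes whose mean lay within 2-fold of that of KLF9, the share was larger. There, 390 (13.5%) had a log2 change of this size or more, counting both signs, and 262 (9.06%) were at least as low. In bulk RNA, fewer cells that express KLF9 and less KLF9 message per cell cannot be told apart, and this holds for each gene here. KLF13, a close relative of KLF9, had 23.7 and 17.1 RPKM, a log2 change of -0.45.

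**Figure D2:**
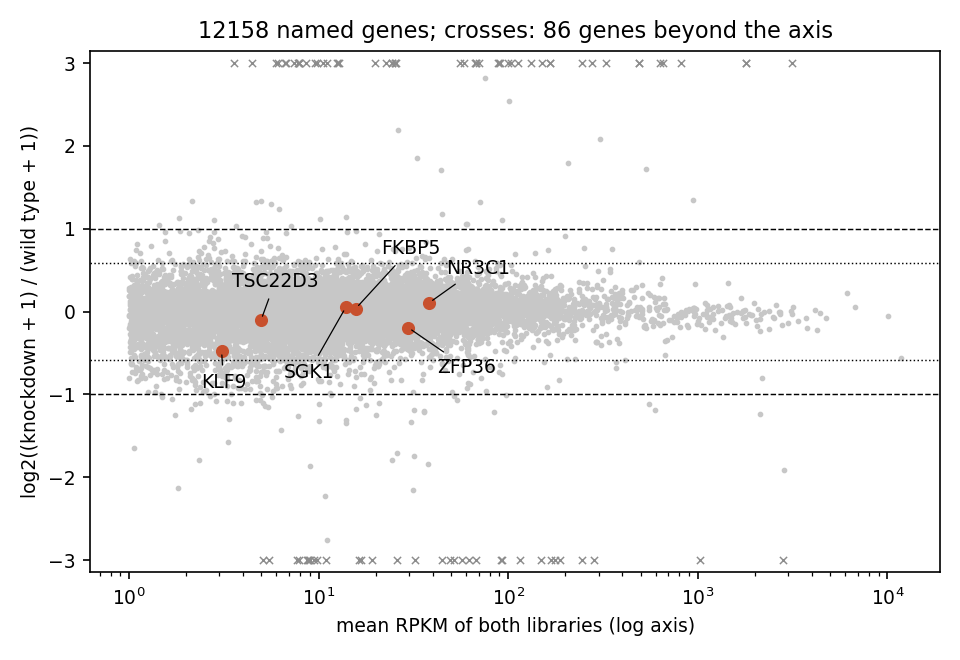
Log2 change against the mean RPKM of both libraries (log axis) for 12158 named genes, with the 6 glucocorticoid receptor genes in red; dashed lines mark 2-fold, dotted lines 1.5-fold, and crosses at the edge stand for genes beyond the axis. All 6 lie inside the dotted lines, and KLF9, at -0.47, lies nearest to one.

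**Figure D3:**
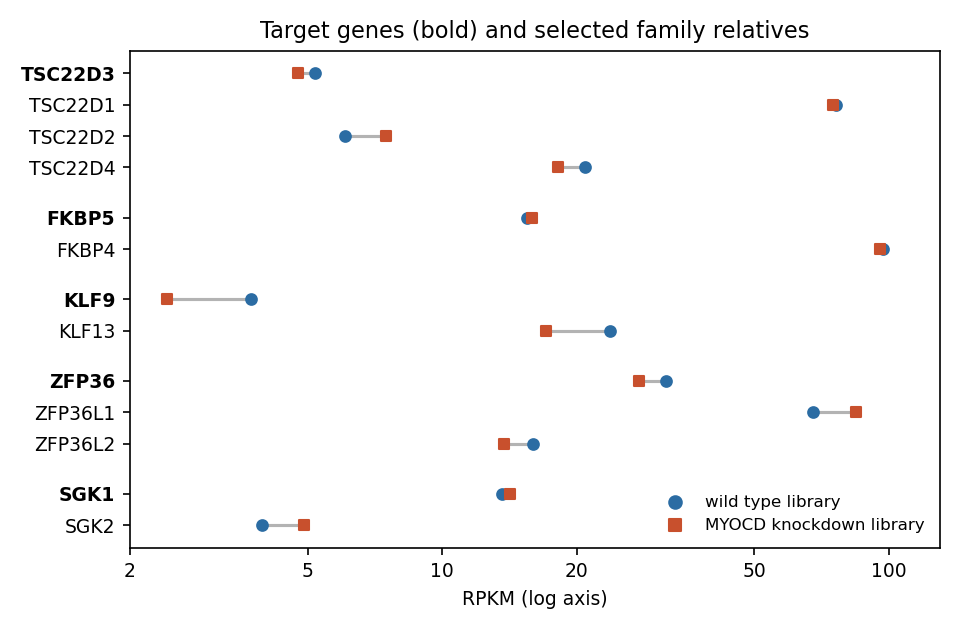
RPKM (log axis) of the 5 target genes (bold) and of 1 to 3 selected family relatives each, with circles for the wild type and squares for the knockdown library, 1 library each. TSC22D3, FKBP5 and KLF9 lie below the relatives shown and SGK1 above its own, while ZFP36 lies between the other two; KLF4, KLF12, FKBP1B and FKBP7, not shown, were among relatives that lay below KLF9 or FKBP5 in the wild type library.

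The DNA around the annotated starts of the 6 genes was searched for receptor and myocardin partner motifs, to show what these promoters hold. RefSeq (GRCh38.p14) gives 18 start windows for them, each from 250 bases before to 50 bases after a start. The full palindromic response element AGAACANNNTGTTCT was in 0 of the 18, and in 1 of 35116 windows of all genes. A relaxed form, GNACANNNTGTNC, was in 0 of the 18 and in 0.39% of all windows. The CArG box was in 0 of the 18 and in 1.29% of all windows. These counts say only that the letters are not in these windows. The half-site AGAACA, on either strand, was in 2 of the 18 windows and in 14.8% of all windows. The matches, in capitals, lay in FKBP5 from the annotated start base itself (chr6:35728548-35728613, minus strand) and in SGK1 from position 5 past an internal start (chr6:134177821-134177886, minus strand):
FKBP5 half-site: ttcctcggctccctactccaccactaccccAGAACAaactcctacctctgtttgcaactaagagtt
SGK1 half-site: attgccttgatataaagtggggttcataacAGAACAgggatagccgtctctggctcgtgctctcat

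The TATA box letters TATAAA, on either strand, were in 5 of the 18 windows, in NR3C1, SGK1 and TSC22D3, and in 11.5% of all windows. They are shown for the matches that lie where a TATA box usually stands, at position -29 before a TSC22D3 start (chrX:107717056-107717121, minus strand) and at position -27 before an SGK1 start (chr6:134174858-134174923, minus strand), where the match is on the opposite strand. The level of SGK1 or TSC22D3 from any 1 start cannot be read from a value per locus.
TSC22D3 TATA box: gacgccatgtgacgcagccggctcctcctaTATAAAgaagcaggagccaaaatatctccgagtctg
SGK1 TATA box: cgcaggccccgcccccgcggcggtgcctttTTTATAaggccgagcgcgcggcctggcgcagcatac

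Tristetraprolin favours the word TATTTAT in 3′ UTRs, and ZFP36 is known to act on its own message. In the annotated 3′ UTR of the principal transcript (GENCODE release 29), the word stood 3 times in ZFP36 and 1 time in SGK1, and in 28.8% of 19164 protein-coding genes. Only the strand of the message was searched. The UTR of ZFP36 has 713 bases, and 19.8% of UTRs within 1.5-fold of that length held the word. For SGK1, with 1016 bases, that share was 26.4%. NR3C1, TSC22D3, FKBP5 and KLF9 held 0 in the principal transcript, with shares of 62.4%, 31.5%, 46.4% and 57.2% at like length. The longest annotated 3′ UTR of FKBP5, looked at after the data were seen, held the word 3 times, at sites not printed here. In their longest 3′ UTR, 31.1% of all genes held it. The sites, with the word in capitals, lie in ZFP36 (plus strand, chr19:39409181-39409209, chr19:39409196-39409224 and chr19:39409221-39409249) and SGK1 (minus strand, chr6:134169477-134169505):
ZFP36 site 1: aatgggcccttTATTTATgacgactttat
ZFP36 site 2: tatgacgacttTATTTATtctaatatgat
ZFP36 site 3: tgattttatagTATTTATatatattgggt
SGK1 site: aaaatgggcatTATTTATgtttttttttt

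Messages of the chaperones that hold the receptor ready for hormone differed by less than 1.5-fold. Of 15 listed chaperones and co-chaperones, all were compared, 0 differed by 1.5-fold, 8 were higher and 7 were lower. Their median log2 change was 0.09, against 0.01 for all named genes. The genes of the cytosolic HSP90 pair went opposite ways. HSP90AA1, the inducible form, had 858 and 1077 RPKM, and HSP90AB1, the constitutive form, had 798 and 553 RPKM, so that their sum was 1656 and 1631 RPKM. These genes share long stretches of sequence and have pseudogenes, so the split of reads between them is uncertain. HSPA8, the constitutive HSP70, had 557 and 736 RPKM, the highest log2 change of the list at 0.40. DNAJB1, an HSP40 partner of HSP70, had 66.8 and 79.3 RPKM. The p23 gene PTGES3, which stabilises the hormone-binding form, had 377 and 402 RPKM. BAG1, a nucleotide exchange factor, had 8.30 and 7.43 RPKM, and the phosphatase PPP5C, a co-chaperone with a TPR domain, had 45.6 and 42.8 RPKM.

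The coactivators and corepressors that the receptor recruits were near equal in both libraries. Of 20 listed, 19 were compared, 0 differed by 1.5-fold, and their median log2 change was 0.0035. The lowest was NCOA3, a p160 coactivator, at 53.7 and 41.0 RPKM. SMARCA4, the BRG1 ATPase of the SWI/SNF remodeller, had 6.83 and 5.53 RPKM, and NCOA1 had 7.005 and 6.264. The other SWI/SNF ATPase gene, SMARCA2, was the highest at 9.02 and 11.98 RPKM, followed by CCAR1 at 26.8 and 30.3 and the Mediator subunit MED1 at 19.1 and 21.5. The p160 partner NCOA2 had 5.05 and 5.70 RPKM. PRMT1 was found only in a locus shared with another gene name.

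A wider list of genes known to be induced by glucocorticoids was lower on balance in the knockdown library. The list was chosen with earlier results of these data known. Of 43 listed genes, 39 were compared, of which 30 were lower and 9 higher, against 47.9% of all named genes lower. Their median log2 change was -0.21, and it was -0.10 with a pseudocount of 5. With equal summed RPKM it was -0.36 over all lines and -0.21 over named lines. At 1.5-fold, 5 were lower, against 3.2% of all named genes, and at 2-fold only ANGPTL4 was lower, against 0.724%. ANGPTL4, an inhibitor of lipoprotein lipase, had 38.6 and 10.5 RPKM. ERRFI1, a feedback inhibitor of EGFR, had 79.4 and 43.2 RPKM, and the clock repressor PER1 had 6.61 and 3.82. TNFAIP3 and LCN2, the others past 1.5-fold, had 4.84 and 2.71 RPKM and 14.2 and 8.79 RPKM. Many of these genes also answer to other signals, such as hypoxia or NF-kB, and the part of each signal in these values was not tested.

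Other well known early targets in that list were lower by less than 1.5-fold. DUSP1, the phosphatase that mediates much of the anti-inflammatory action, had 164 and 145 RPKM, NFKBIA, the NF-kB inhibitor, had 57.3 and 50.8, and CEBPD, an early induced transcription factor, had 60.3 and 46.5. These 3 were named after their values were seen. Among those higher in the knockdown library, CDC42EP3, a CDC42 effector, had 6.95 and 10.9 RPKM, and the small GTPase gene RHOB had 62.0 and 82.0 RPKM. Of the listed genes, 2 were found with a mean under 1 RPKM (CDKN1C and CRISPLD2) and 2 were not matched to a line.

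Genes that glucocorticoids are known to repress, a list also chosen with earlier results of these data known, were lower as well. Of 22 listed, 14 were found and compared, of which 11 were lower and 3 higher, with a median log2 change of -0.40. Of all named genes, 47.9% were lower. At 1.5-fold, 5 were lower and 2 higher, against 3.2% and 1.65% of all named genes. The chemokine gene CCL20 had 14.6 and 3.30 RPKM, PTGS2, which encodes COX-2, had 42.0 and 20.8, and the chemokine gene CXCL3 had 9.44 and 4.63. FOSL1, an AP-1 subunit, was highest at 26.2 and 47.9 RPKM, followed by the cytokine gene IL11 at 3.69 and 6.27. CCL2, another chemokine, had 18.8 and 19.7 RPKM. The induced and the repressed list were thus both lower on balance. Receptor activity was not measured, and the part of NF-kB, AP-1 or other signals in the values of the repressed list was not tested.

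**Figure D4:**
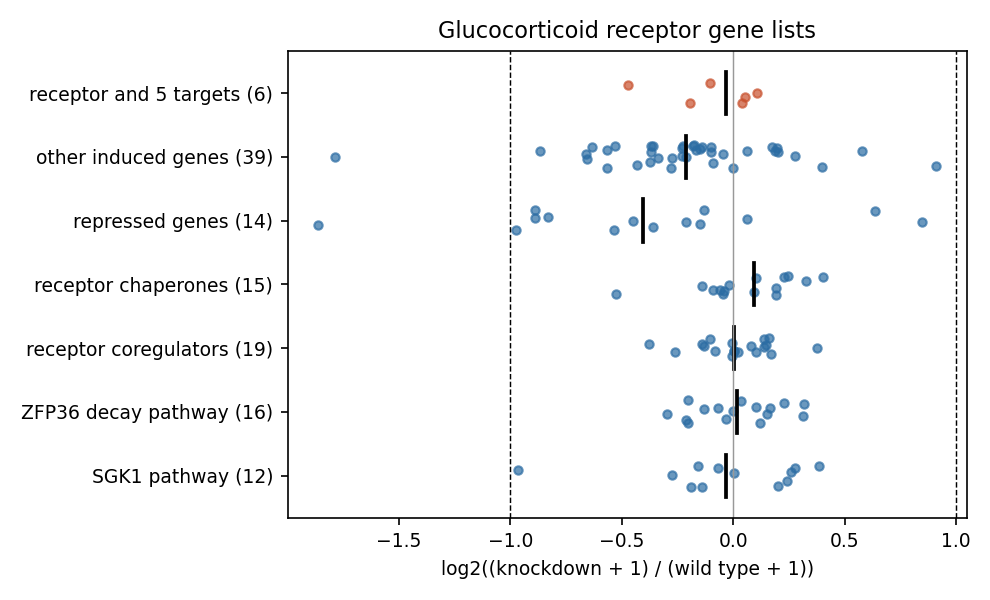
Log2 change of each compared gene in the receptor set (red) and in 6 related lists (blue), with the number of genes in brackets, a black bar at the median and dashed lines at 2-fold; the vertical spread of points has no meaning. The medians of the induced and repressed lists lie at -0.21 and -0.40, and those of the other lists lie near 0.

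Around ZFP36, the p38 and MK2 kinases that inactivate tristetraprolin and the deadenylation and decapping enzymes that carry out decay showed no common direction. All 16 listed genes were compared, 8 lower and 8 higher, 0 past 1.5-fold, with a median log2 change of 0.02. ZFP36L1 and CNOT6, a catalytic deadenylase subunit with 14.1 and 17.8 RPKM, were highest, followed by the kinase gene MAPKAPK3 at 17.6 and 20.8 RPKM. CNOT6L, the close relative of CNOT6, was lowest at 5.96 and 4.65 RPKM, followed by CNOT8 at 24.5 and 21.0 and ZFP36L2.

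Around SGK1, 12 of 13 listed genes were compared, 6 lower and 6 higher, with a median log2 change of -0.03. NDRG1, whose protein is a well known SGK1 substrate and whose message is induced by hypoxia, had 67.2 and 33.9 RPKM and was the 1 gene of the 12 past 1.5-fold, against 4.85% of all named genes. FOXO3, a transcription factor that SGK1 phosphorylates, had 3.05 and 2.35 RPKM, and RICTOR, the mTORC2 subunit needed to activate SGK1, had 10.6 and 9.17. GSK3B, a kinase, had 12.5 and 16.6 RPKM, MAPKAP1, another mTORC2 subunit, had 32.6 and 39.7, and SGK2 followed.

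Hormone supply inside the cell could be described only in part. Of 15 listed steroid receptors and steroid enzymes, 6 were found, and HSD11B1 and HSD11B2, which activate and inactivate cortisol, were not among them. H6PD, which supplies the cofactor of HSD11B1, had 11.8 and 9.74 RPKM, and SRD5A1 and SRD5A3, of the steroid reductase family, had 13.5 and 15.7 and 3.36 and 3.49. CYP3A5, a steroid hydroxylase, had 1.57 and 3.40 RPKM, the 1 of 5 compared genes past 1.5-fold, against 4.85% of all named genes.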

How the data were processed

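RNA-seq of 2 libraries was used, 1 per group. RPKM were computed by the authors before deposit, 1 value per locus and library. Per the submitters' processing notes, the tools were TopHat2 2.0.10 and Cufflinks 2.2.1; the notes list GRCh38.p12 beside the fruit fly build BDGP5 and give no roles. Annotation, filters and strand are not stated there. In every locus the higher value is at least 0.652 RPKM.

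Loci with no gene name (1909 of 14952) were left out and lines of 1 name were summed. A pseudocount of 1 and a minimum mean of 1 RPKM were used. Genes named were the 6, MYOCD, family relatives and, per list, the 3 highest and 3 lowest compared members; in some lists further genes were named after their values were seen, and some genes the rule takes are not reported here. The members, lists and rules were chosen with earlier results of these data known. Current symbols were matched to older ones through gene tables. Motifs were searched in RefSeq start windows and GENCODE release 29 transcripts. Calculations used Python 3.11.15, numpy 2.4.6 and pandas 2.3.3. They were run on simulated data with large built-in changes, which checks the arithmetic only and not the differences reported here. Alternatives changed the pseudocount, the filter, the scaling and the handling of names.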

Additional observations from a re-analysis of the deposited data

How the results depend on the processing

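With 1 library per group there is no replicate to leave out and no test. No paired analysis was possible because each group has 1 library and the result comes from no test. In none of the 9 alternatives did any of the 6 genes differ by 2-fold. At 1.5-fold the count went from 0 to 1, KLF9, with a pseudocount of 0.1 and likewise 1 with the libraries rescaled to equal summed RPKM over all lines. It stayed 0 with equal sums over named lines. Equal sums below are those over all lines unless named lines are stated. The log2 change of KLF9 ran from -0.62 (equal sums) to -0.24 (pseudocount of 5). With equal sums over named lines the median of all named genes was 0.005 and that of the 6 genes was -0.04. Equal sums over all lines moved the median of all named genes from 0.01 to -0.17 and that of the 6 genes from -0.03 to -0.21. All 6 were then below 0, NR3C1 at -0.09, and 3 of them lay below the shifted median, as in the values as deposited. When an average of 5 RPKM was required, TSC22D3 and KLF9 were left out and the median was 0.0445. Of the induced list, 29 of 39 lay below the median of all named genes with equal sums, and of the repressed list 11 of 14. The median of the induced list was -0.10 with a pseudocount of 5. The chaperone median, 0.09 as deposited, was -0.11 with equal sums. Among all named genes the count past 2-fold was 167 and went to 300 with a pseudocount of 0.1. That past 1.5-fold was 590 and went to 960 with a pseudocount of 0.1, 222 with 5, 349 with an average of 5 RPKM required and 924 with equal sums. Equal sums over all lines gave 811 lower and 113 higher genes at 1.5-fold, against 389 and 201. Over named lines they gave 399 and 194. In the longest annotated 3′ UTR of any transcript, chosen after the data were seen, FKBP5 held TATTTAT 3 times. Depth is unknown, so counting error at the level of KLF9 could not be set.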

Other observations

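Among the other Krüppel-like factor genes, 11 of 16 were found, 5 lower and 6 higher, with a median log2 change of 0.14. KLF13, KLF5 and KLF16 were the lowest, with 23.7 and 17.1, 21.8 and 17.1, and 19.9 and 18.1 RPKM. KLF10, a gene induced by TGF-beta, was the highest at 27.0 and 37.0 RPKM, followed by KLF6 at 16.6 and 19.2 RPKM and KLF2, a gene induced by shear stress in endothelium, at 16.8 and 19.2 RPKM. With a pseudocount of 1, the log2 change of KLF9, at -0.47, lay below those of the 11, of which KLF13 was lowest at -0.45. With a pseudocount of 5, KLF9 was at -0.24 and KLF13 lay below it.

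The other FKBP genes, which encode peptidyl-prolyl isomerases and related chaperones, numbered 12 among those compared, 7 lower and 5 higher, with a median log2 change of -0.03. FKBP1B was the lowest at 9.08 and 6.59 RPKM, followed by FKBP14 and FKBP11 of the endoplasmic reticulum at 18.02 and 14.86 and at 29.85 and 25.21 RPKM. FKBP7 was the highest at 5.22 and 7.11 RPKM, with FKBP3, a nuclear form, at 92.5 and 104 and FKBP10 at 70.8 and 76.9 RPKM. None of the 12 differed by 1.5-fold.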
